A study of Mus musculus with 16 samples.

Results

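The interferon-stimulated antiviral genes examined here are a list of 42 genes of the type that the ISGF3 complex drives. They were taken by gene symbol from the 2 deposited count tables, and whether ISGF3 drives each of them was not tested. All 42 symbols were present among the 56980 genes of the table with IFNγ and the 55414 named genes of the untreated table. KPC1199 is a mouse pancreatic ductal adenocarcinoma line derived from the KPC model, which has a Pdx-cre driver and mutant Trp53 R172H. Every library carried the alleles of that model and a stable lentiviral CRISPR-Cas9 construct, introduced with puromycin selection. The control cells (sgCtrL) carried a non-targeting guide, and the Sin3B-deficient cells (Sin3Bsg1) carried 1 guide against Sin3B, so that guide and genotype cannot be told apart. An untreated experiment held 2 libraries of each genotype. An IFNγ experiment held 3 libraries of each genotype without IFNγ and 3 with IFNγ at 10 ng/ml for 24 h. The sources do not say whether replicates came from separate cultures, so the p-values below measure the spread between these libraries only.

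ISGF3 is a transcription factor complex that includes STAT2 and IRF9, and it assembles when type I or type III interferon receptors activate the kinases JAK1 and TYK2. It binds the interferon-stimulated response element (ISRE) in the promoters of antiviral genes. IFNγ signals through another receptor and acts at GAS elements, and the IRF1 that it induces also binds ISRE-type sequences. The products block viruses at many steps, from entry at the membrane (the IFITM proteins and BST2) to the reading of viral RNA (the IFIT and OAS proteins). The comparisons ask how much of this program the tumor cells ran at rest, how far IFNγ raised it, and whether either differed without Sin3B.

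The deposited estimated counts summed to between 29683181 and 32311721 per library in the untreated experiment and between 18128055 and 27056903 in the IFNγ experiment. Sin3b fell in Sin3Bsg1 in every setting, for example from 88.5 to 95.6 CPM (counts scaled to library size) in the sgCtrL libraries without IFNγ to 38.6 to 39.4 CPM in the Sin3Bsg1 libraries (log2 fold change -1.24, standard error 0.052, edgeR adjusted p = 5.10e-10). Replicate 1 of sgCtrL with IFNγ stood apart from its group, with a mean chi-square of 22.0 and 18.2 against the other two libraries, which differed from each other by 4.03. The leukocyte list summed to at most 0.187 CPM and the endothelial list to at most 0.522 CPM, and the leading marker Siglech of plasmacytoid dendritic cells, which make type I interferon, was at 0 throughout. Of the other 3 genes on that cell type's list, Irf8 had 1 count in 1 library, and Bst2, which is also one of the 42 genes, and Tcf4 were both higher in Sin3Bsg1 untreated and without IFNγ (Tcf4 log2 fold change 0.50 and 0.19, edgeR adjusted p = 1.04e-07 and 0.0102). That list summed to 96.1 to 97.6 CPM in untreated Sin3Bsg1 against 68.1 to 70.7 CPM in untreated sgCtrL, to 104 to 108 against 87.9 to 94.0 CPM without IFNγ, and to 228 to 268 against 214 to 254 CPM with it. The fibroblast list summed to 30.5 to 33.4 CPM in untreated Sin3Bsg1 against 100.2 to 100.8 CPM in untreated sgCtrL, while the epithelial list summed to 6195 to 6253 against 4600 to 4625 CPM. In the IFNγ experiment the fibroblast list was at 224 to 234 CPM in Sin3Bsg1 and 262 to 268 CPM in sgCtrL without IFNγ, and at 161 to 172 and 184 to 186 CPM with it. Of the 6 epithelial markers, 6, 3 and 5 were called higher in Sin3Bsg1 untreated, without and with IFNγ (edgeR threshold 0.05). The shares of all genes called higher in these settings were 15.1%, 7.89% and 8.62%. Only 4 of the 7 fibroblast markers could be tested untreated, and 2 of these 4 were lower. In each of the other settings 3 were tested, of which 1 was lower and 1 higher. Calls in either direction covered 31.2%, 17.2% and 16.5% of all genes in the 3 settings. The part of these markers in the genotype results below was not tested.

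At rest the cells held a few of the antiviral mRNAs at high level and many of the others at only a few counts. In the untreated experiment 24 of the 42 genes had at least 10 counts in every library. Without IFNγ in the other experiment 21 did. Levels are compared between genes in TPM, which are scaled to gene length and library size. Ifitm1, Ifitm2, Ifitm3 and Lgals3bp together made up 90.8 to 91.5% of the summed TPM of the 42 genes in sgCtrL without IFNγ, and 90.3 to 90.8% in Sin3Bsg1. In sgCtrL without IFNγ the order ran from Ifitm2 at 1079 ± 24.9 TPM (SD, n = 3) to Ifitm1 at 845 ± 54.7, Ifitm3 at 686 ± 19.1 and Lgals3bp at 526 ± 4.71, and each gap was larger than these spreads. The next gene, Slfn2, stood at 115 ± 5.08 TPM. With IFNγ the order changed to Ifitm3 at 1135 ± 14.0, Lgals3bp at 975 ± 53.1, Ifitm2 at 687 ± 21.2, Ifitm1 at 571 ± 75.3 and Bst2 at 439 ± 44.3 TPM. The summed level of the other 38 genes rose from between 299.9 and 312 TPM to between 1876 and 1916 TPM in sgCtrL. In Sin3Bsg1 the corresponding ranges were 311 to 314 TPM and 1975 to 2063 TPM.

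**Figure D1:**
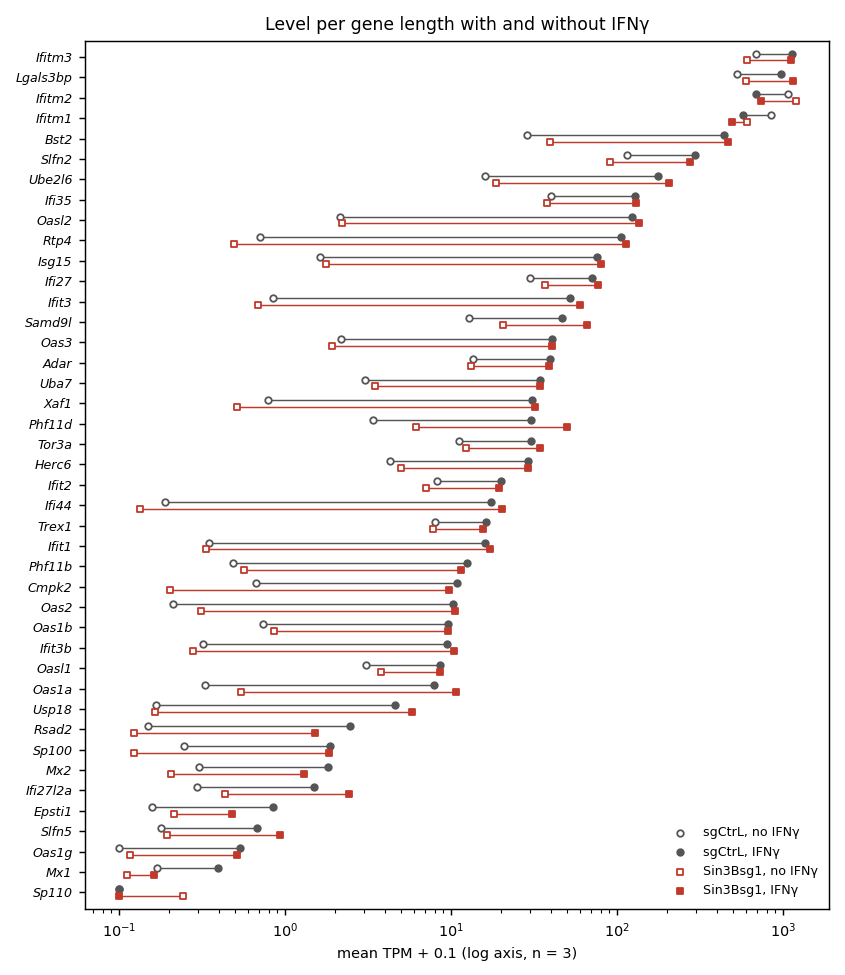
Mean TPM of the 42 genes (plus 0.1, log axis) in the IFNγ experiment, without IFNγ (open) and with IFNγ (filled), for sgCtrL (grey circles) and Sin3Bsg1 (red squares), n = 3 libraries each, ordered by the sgCtrL level with IFNγ. Only Ifitm1, Ifitm2 and, in Sin3Bsg1, the barely detected Sp110 lay lower with IFNγ, and in most rows the genotypes sat close together.

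IFNγ raised almost the whole program in both genotypes. Of the 38 genes that passed the filter on low counts, 36 were higher and 2 lower with IFNγ in sgCtrL at an edgeR adjusted p under 0.05, where 30.2% of all 14913 genes tested were called, 15.7% higher and 14.5% lower. In Sin3Bsg1 35 were higher and 1 lower, against 16.1% and 12.3% of all genes. The median log2 fold change was 3.62 in sgCtrL and 3.57 in Sin3Bsg1, and over all genes it was -0.0006 and 0.005. A rise of at least 2-fold was found for 34 genes in sgCtrL and 34 in Sin3Bsg1, while 3.21% and 3.25% of all genes rose that much. The filter favours genes with a high level in any group, and 17 of the 38 had fewer than 10 counts in at least 1 library without IFNγ. When every library had to hold at least 10 counts, 21 genes remained, of which 19 rose and 2 fell in sgCtrL. The median log2 fold change of these 21 genes was lower, at 1.625 in sgCtrL and 1.67 in Sin3Bsg1. Without any filter, 38 of 42 genes were higher in sgCtrL and 37 in Sin3Bsg1. The untested genes Oas1g, Mx1, Sp110 and Ifi27l2a had between 0 and 20 counts in each of the 12 libraries of this experiment.

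**Figure D2:**
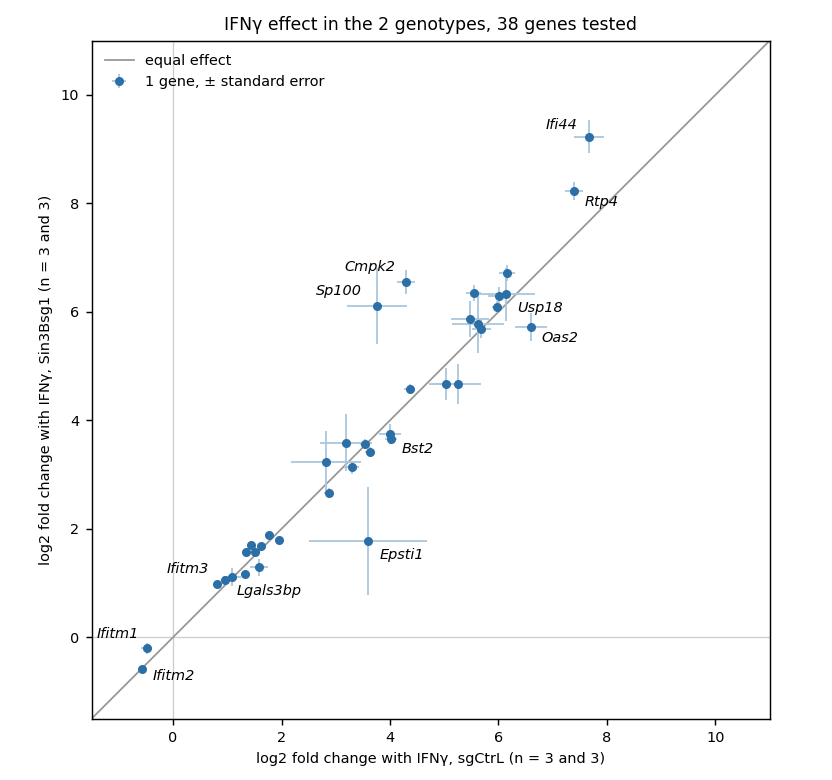
Log2 fold change with IFNγ in sgCtrL (x) and in Sin3Bsg1 (y) for the 38 genes tested, with standard errors; the grey line marks equal effects. Most genes lie near the line, with Ifitm2 below 0 at its lower end, while Cmpk2, Sp100 and Ifi44 lie above it and Epsti1 below it.

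Promoters are shown for some of the genes as examples, which do not span the whole response. Windows from 250 bases before to 50 bases after the transcription start, from RefSeq on GRCm38.p6, were found for 33 of the 42 genes. An ISRE-type motif, GAAANNGAAA on either strand, was present in 13 of the 33 (39.4%) and in 3.44% of all 32851 promoters of the table. A GAS-type motif, TTCNNNGAA, was present in 6 of the 33 (18.2%) and in 8.30% of all promoters. The 33 genes had 39 windows, and a gene was counted when any of its windows matched. The shares of all promoters count each promoter singly, so the units differ. In the windows below, letters of either motif are in capitals, and overlapping matches run together. Isg15, Ifit3, Ifit3b, Rsad2 and Bst2 are strongly induced genes with an ISRE-type match. Ifitm2 fell with IFNγ and its window holds a match. Ifitm1, which fell in sgCtrL, and the strongly induced Cmpk2 and Oasl2 hold none. The windows of Ifi44, which had the largest rise, and of the strongly induced Xaf1 also hold none and are not shown. Positions are counted from the start, with -1 the base before it.
Isg15, chr4:156200858-156200938, minus strand, -120 to -40: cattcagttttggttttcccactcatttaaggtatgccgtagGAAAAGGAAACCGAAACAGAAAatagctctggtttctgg
Ifit3, chr19:34583349-34583429, plus strand, -180 to -100: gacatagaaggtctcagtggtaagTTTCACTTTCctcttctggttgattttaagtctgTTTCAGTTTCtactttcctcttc
Ifit3b, chr19:34607747-34607827, plus strand, -210 to -130: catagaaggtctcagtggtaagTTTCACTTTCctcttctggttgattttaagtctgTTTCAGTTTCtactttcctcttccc
Rsad2, chr12:26456542-26456592, minus strand, -140 to -90: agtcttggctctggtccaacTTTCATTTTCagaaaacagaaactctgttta
Bst2, chr8:71537572-71537632, minus strand, -160 to -100: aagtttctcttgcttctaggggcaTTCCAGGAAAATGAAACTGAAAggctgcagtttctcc
Ifitm2, chr7:140955962-140956071, minus strand, -110 to -1: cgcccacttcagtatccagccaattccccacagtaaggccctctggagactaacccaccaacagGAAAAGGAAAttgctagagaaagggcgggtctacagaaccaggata
Ifitm1, chr7:140967876-140968075, plus strand, -200 to -1: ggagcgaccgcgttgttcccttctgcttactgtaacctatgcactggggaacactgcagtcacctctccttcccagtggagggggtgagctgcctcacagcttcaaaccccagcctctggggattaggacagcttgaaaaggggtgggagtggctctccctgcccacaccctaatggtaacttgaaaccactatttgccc
Cmpk2, chr12:26469015-26469214, plus strand, -200 to -1: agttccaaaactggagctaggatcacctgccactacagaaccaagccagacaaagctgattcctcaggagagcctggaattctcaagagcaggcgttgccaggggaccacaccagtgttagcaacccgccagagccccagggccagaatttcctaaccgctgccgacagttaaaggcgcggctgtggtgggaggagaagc
Oasl2, chr5:114896734-114896933, plus strand, -200 to -1: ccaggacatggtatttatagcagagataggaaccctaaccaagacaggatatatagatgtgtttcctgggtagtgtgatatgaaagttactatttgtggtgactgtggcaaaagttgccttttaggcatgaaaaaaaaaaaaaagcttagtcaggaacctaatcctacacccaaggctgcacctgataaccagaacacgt
The 12 tested genes with an ISRE-type match had log2 fold changes with IFNγ from -0.57 to 6.16 in sgCtrL (median 5.14), and the 19 tested genes without one ranged from -0.49 to 7.67 (median 2.87). The ranges overlapped almost entirely, and a match or its absence in these windows is a description of letters only.

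The IFIT proteins bind viral RNA with foreign 5′ ends, and their 4 genes lie together on chromosome 19. All 4 rose with IFNγ in both genotypes. Ifit3, the most abundant of them with IFNγ, had 0.755, 0.668 and 0.374 CPM in sgCtrL without IFNγ and 41.9, 43.9 and 45.5 CPM with it, and in Sin3Bsg1 0.533, 0.218 and 0.645 CPM became 48.6, 49.8 and 52.0 CPM. The groups with and without IFNγ were far apart and did not overlap. The log2 fold change of Ifit3 was 6.16 (standard error 0.15, edgeR adjusted p = 1.33e-14) in sgCtrL and 6.72 (0.15, adjusted p = 3.21e-15) in Sin3Bsg1. Ifit1 went from 2, 9 and 8 counts to 443, 528 and 417 counts in sgCtrL, a ratio of 65.0 with an exact counting interval from 41.5 to 108 at the 95% level. In Sin3Bsg1 its 6, 6 and 8 counts became 530, 531 and 518, a ratio of 79.5 (51.3 to 131). Ifit2 differed from its neighbours in its resting level of 14.3 ± 0.660 CPM (SD, n = 3) in sgCtrL, and it rose by only 1.35 on the log2 scale (standard error 0.081, edgeR adjusted p = 2.21e-09) there and 1.57 in Sin3Bsg1. Ifit3b rose by 5.47 and 5.87. Reads of Ifit3 and Ifit3b are uncertain because 39.4% and 58.1% of their 31-base words occur in other genes, mostly in each other, and their promoters share the long run of letters shown above.

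The enzymatically active OAS proteins make 2′-5′ oligoadenylates that activate RNase L, and the 7 genes of the family listed here lie on chromosome 5. The 6 tested genes rose in both genotypes, by log2 fold changes from 1.58 to 6.60 in sgCtrL and from 1.29 to 6.10 in Sin3Bsg1. Oasl2 had the highest level, with 3.51, 2.88 and 2.41 CPM in sgCtrL without IFNγ and 191, 187 and 178 CPM with it, and with 3.50, 3.22 and 2.15 CPM against 205, 201 and 206 CPM in Sin3Bsg1. Its log2 fold change was 5.98 (standard error 0.11, edgeR adjusted p = 2.04e-16) in sgCtrL and 6.10 (0.10, adjusted p = 1.04e-16) in Sin3Bsg1. Oas2 had 9, 3 and 0 counts in sgCtrL without IFNγ and 370, 546 and 431 with it, a ratio of 99.9 (exact counting interval 57.0 to 194). In Sin3Bsg1 the counts were 6, 13 and 8 against 493, 509 and 432, a ratio of 53.5 (36.6 to 81.5), and the counting intervals of the genotypes overlapped. The smallest rise was that of Oasl1, from 2.88 ± 0.686 to 8.69 ± 0.755 CPM (SD, n = 3) in sgCtrL. Oas1g had no count in the 3 sgCtrL libraries without IFNγ and 12, 11 and 5 counts with it, at least 8.30-fold higher when 3 counts are allowed over the group without IFNγ. Their reads are uncertain, since 61.6% of the 31-base words of Oas1g and 22.8% of those of Oas1a also occur in other genes, mostly in each other.

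The Mx proteins are dynamin-like GTPases that trap viral capsids, and both genes were scarce. Mx2 had 3, 2 and 8 counts in sgCtrL without IFNγ and 38, 59 and 42 with it, and 1, 5 and 2 counts against 41, 28 and 31 in Sin3Bsg1. It rose by 3.19 on the log2 scale in sgCtrL (standard error 0.47, edgeR adjusted p = 8.83e-05) and by 3.58 in Sin3Bsg1 (0.52, adjusted p = 7.07e-05). Mx1, which many inbred mouse strains carry in a defective form, reached only 6, 9 and 13 counts in sgCtrL with IFNγ and 4, 1 and 1 counts in Sin3Bsg1.

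Viperin (Rsad2) makes a chain-terminating nucleotide from the product of its neighbour Cmpk2, a nucleotide kinase, and the genes lie side by side on chromosome 12. Rsad2 had 4, 1 and 0 counts in sgCtrL without IFNγ and 97, 98 and 98 with it, a ratio of 52.1 (exact counting interval 22.1 to 162). In Sin3Bsg1 it had 2, 1 and 0 counts against 70, 55 and 60, a ratio of 62.1 (20.9 to 304). Cmpk2 is described with the comparison of the IFNγ effects between genotypes.

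The 4 genes of membrane restriction factors moved in both directions with IFNγ. Bst2 encodes tetherin, which holds budding virions at the cell surface, and IFNγ raised it from 9.98, 10.2 and 10.8 CPM to 147, 183 and 172 CPM in sgCtrL and from 14.5, 14.2 and 13.7 CPM to 152, 190.0 and 194 CPM in Sin3Bsg1. The log2 fold change was 4.02 (standard error 0.11, edgeR adjusted p = 4.03e-14) and 3.66 (0.10, adjusted p = 6.73e-14). The IFITM proteins block fusion of viruses with the endosome, and their 3 genes lie together on chromosome 7. Ifitm2 fell with IFNγ in both genotypes, from 313, 334 and 319.9 CPM to 210.4, 228 and 213 CPM in sgCtrL and from 362, 357 and 334 CPM to 226, 239 and 232 CPM in Sin3Bsg1. Its log2 fold change was -0.57 (standard error 0.049, edgeR adjusted p = 1.92e-07) in sgCtrL and -0.59 (0.049, adjusted p = 1.08e-07) in Sin3Bsg1. Ifitm3 went the other way, rising from 212 ± 6.83 to 371 ± 9.19 CPM (SD, n = 3) in sgCtrL and from 184 ± 6.99 to 364 ± 16.4 CPM in Sin3Bsg1. Ifitm1 fell by 0.49 on the log2 scale (standard error 0.099, edgeR adjusted p = 0.00149) in sgCtrL, from 264, 306 and 282 CPM to 175, 233 and 199 CPM. In Sin3Bsg1 it stood at 201 ± 9.61 CPM (SD, n = 3) without IFNγ and 174 ± 23.3 CPM with it, and the libraries overlapped (log2 fold change -0.21, adjusted p = 0.140). Ifitm1 was called lower in Sin3Bsg1 as well without replicate 3 with IFNγ, without a filter on low counts and in a fit on only the libraries compared. The difference of its IFNγ effects between genotypes did not pass the threshold (0.28, standard error 0.14, adjusted p = 0.912). In Ifitm2, 31.3% of the 31-base words also occur in other annotated genes, which are mostly predicted ones.

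**Figure D3:**
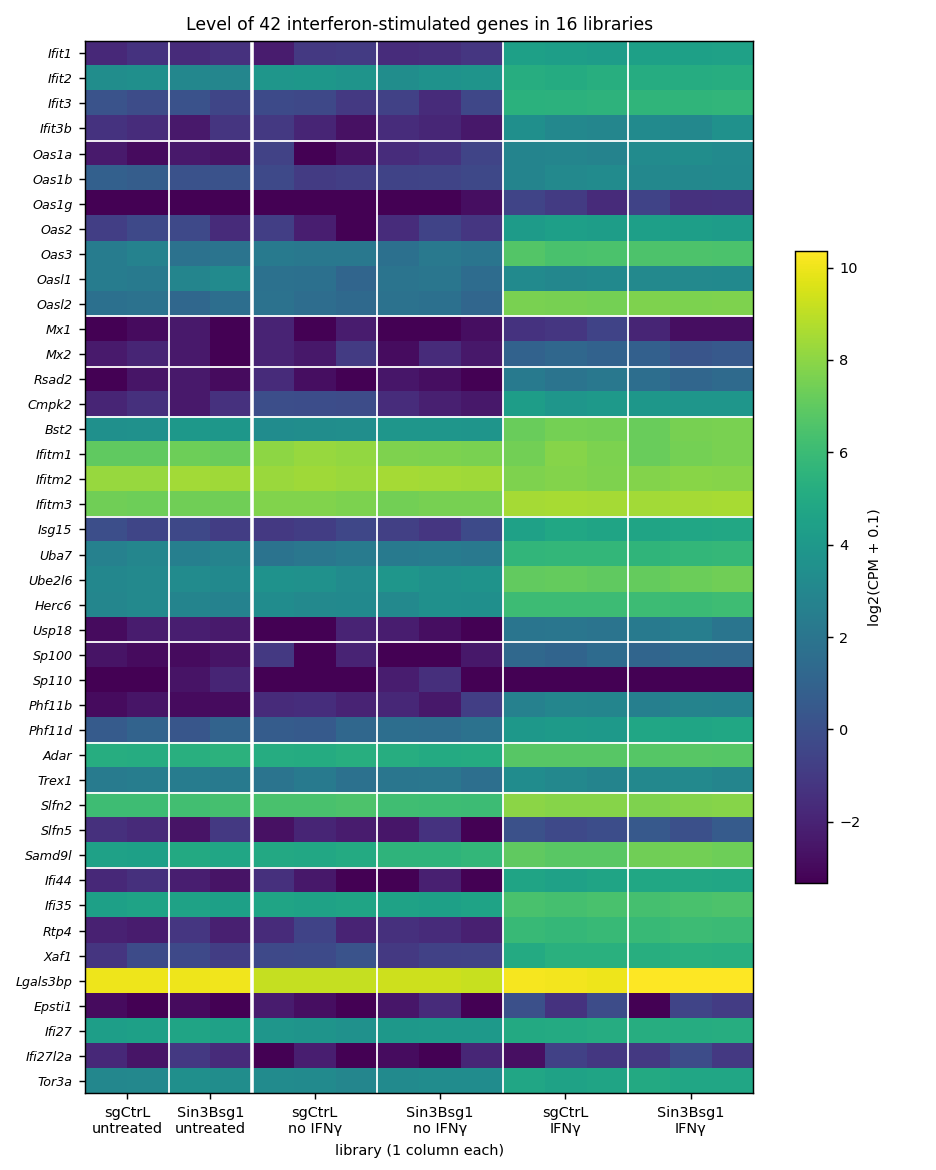
Level of the 42 genes, as log2(CPM + 0.1), in the 16 libraries; white lines divide the groups and the functional classes, and the thick line divides the experiments. The columns with IFNγ are brighter in nearly every class, the rows of Lgals3bp and of Ifitm1, Ifitm2 and Ifitm3 are bright in all libraries, and Sp110, Oas1g and Mx1 are dark in nearly all.

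ISG15 is a ubiquitin-like modifier, which Uba7 (the E1 enzyme), Ube2l6 (the E2) and Herc6 (the mouse E3) attach to proteins and Usp18 removes. The 5 genes rose in both genotypes, by 2.87 to 6.15 on the log2 scale in sgCtrL and by 2.67 to 6.32 in Sin3Bsg1. Ube2l6 had the highest level, with 12.2, 12.1 and 9.63 CPM against 132, 137 and 128 CPM with IFNγ in sgCtrL, and 13.1 ± 1.16 CPM (SD, n = 3) against 141, 158 and 166 CPM in Sin3Bsg1. Usp18 had 0, 0 and 3 counts in sgCtrL without IFNγ and 77, 108 and 82 with it, a ratio of 79.2 whose exact counting interval runs from 26.8 to 386. In Sin3Bsg1 its 3, 1 and 0 counts became 118, 139 and 92, a ratio of 87.9 (34.0 to 324). Isg15 itself rose by 5.69 (standard error 0.18, edgeR adjusted p = 4.70e-13) and 5.68 (0.17, adjusted p = 2.06e-13), and the difference between the genotypes was -0.003 with a standard error of 0.28.

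Sp100 and Sp110 are nuclear body proteins, and Phf11b and Phf11d are PHD-finger proteins whose genes lie on chromosome 14. Phf11d, the most abundant, had 1.46, 1.38 and 2.25 CPM in sgCtrL without IFNγ and 15.6, 17.7 and 16.1 CPM with it, and 2.93, 2.91 and 3.40 against 26.7, 26.1 and 28.3 CPM in Sin3Bsg1. The log2 fold change was 3.30 (standard error 0.14, edgeR adjusted p = 1.93e-11) and 3.13 (0.12, adjusted p = 4.05e-12). Sp100 and Phf11b rose as well, from at most 7 and 11 counts per library. Sp110 had no count in any library with IFNγ and at most 6 in the other libraries. For Phf11b and Sp110, 59.5% and 43.7% of their 31-base words occur in other genes, and for Phf11d 11.8%.

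ADAR edits double-stranded RNA and TREX1 degrades cytosolic DNA. Adar was already high at 35.6, 34.0 and 38.3 CPM in sgCtrL and rose to 113, 110.4 and 110.1 CPM, with 36.0, 32.8 and 34.4 against 109, 112 and 108 CPM in Sin3Bsg1 (log2 fold change 1.63 and 1.67, edgeR adjusted p = 7.19e-13 and 4.16e-13). Trex1 rose by 1.09 and 1.10. All of its transcript sequence is also part of an annotated Atrip transcript, so that its counts cannot be assigned to it alone. Among the Schlafen and SAMD9 genes, Slfn2 rose from 87.3 ± 3.46 to 237 ± 11.2 CPM (SD, n = 3) in sgCtrL and from 68.2 ± 2.85 to 221 ± 13.5 CPM in Sin3Bsg1. Samd9l, whose values are given with the genotypes, rose by 1.95 on the log2 scale (standard error 0.064) in sgCtrL and 1.79 (0.061) in Sin3Bsg1. Slfn5 rose too, from at most 7 counts per library to between 19 and 33.

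The steepest rises were those of Ifi44 and Rtp4, both interferon-stimulated genes with antiviral activity. Ifi44 had 5, 2 and 0 counts in sgCtrL without IFNγ and 504, 604 and 560 with it (log2 fold change 7.67, standard error 0.28, edgeR adjusted p = 2.80e-12), a ratio of 212 with an exact counting interval from 103 to 528. In Sin3Bsg1 it had 0, 3 and 0 counts against 684, 718 and 628, a ratio of 681 that so few counts leave anywhere from 233 to 3307. Rtp4, a receptor transport protein that binds RNA, had 4, 14 and 3 counts against 1213, 1479 and 1324 in sgCtrL, a ratio of 170.2 (111 to 275). In Sin3Bsg1 its 7, 5 and 3 counts became 1431, 1647 and 1491, a ratio of 307 (186 to 549). Xaf1, a proapoptotic gene, rose from 0.701, 0.751 and 1.02 CPM to 33.1, 41.5 and 40.2 CPM and from 0.381, 0.522 and 0.559 CPM to 38.6, 41.5 and 38.9 CPM (log2 fold change 5.54 and 6.34, edgeR adjusted p = 2.31e-14 and 6.51e-15). Lgals3bp, a secreted glycoprotein, had the smallest rise of this class, from 559, 560.4 and 560.4 to 1151, 1102 and 1029 CPM in sgCtrL (log2 fold change 0.97, standard error 0.046, edgeR adjusted p = 1.13e-10) and from 639, 643 and 596 to 1304, 1307 and 1267 CPM in Sin3Bsg1 (1.05, 0.046, adjusted p = 3.55e-11). Ifi35, Ifi27 and Tor3a rose by 1.32 to 1.76 in sgCtrL and by 1.16 to 1.88 in Sin3Bsg1. Epsti1 rose in sgCtrL (3.60, edgeR adjusted p = 0.0202), from 2, 1 and 0 counts to 18, 8 and 18. In Sin3Bsg1 it had 2, 5 and 0 counts against 0, 15 and 10 (1.78, adjusted p = 0.206). The call in sgCtrL was lost without replicate 3 with IFNγ and without replicates 2 or 3 without IFNγ (adjusted p from 0.0517 to 0.0788). For Rtp4, 26.1% of the 31-base words also occur in another annotated gene.

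Whether the loss of Sin3B changed this response was tested as the difference of the IFNγ effects. Among the 38 genes tested Cmpk2 alone passed the threshold, where 0.114% of all genes did (17 genes), and without a filter on low counts Bst2 was called too. Cmpk2 had 16, 20 and 15 counts in sgCtrL without IFNγ and 6, 3 and 2 counts in Sin3Bsg1, and with IFNγ it had 389, 378 and 353 counts in sgCtrL and 361, 359 and 342 in Sin3Bsg1. In CPM these were 0.863, 0.835 and 0.802 against 0.228, 0.131 and 0.0860 without IFNγ, and 19.3, 14.3 and 15.9 against 15.1, 14.5 and 14.7 with it. The genotypes were apart at rest and overlapped with IFNγ. Its IFNγ effect was 4.30 (standard error 0.17, edgeR adjusted p = 8.43e-12) in sgCtrL and 6.55 (0.22, adjusted p = 8.73e-13) in Sin3Bsg1, a difference of 2.26 (0.38, adjusted p = 0.0337). At rest the ratio of Sin3Bsg1 to sgCtrL was 0.182 with an exact counting interval from 0.0856 to 0.354. The same ratio was 0.867 (0.362 to 2.06) in the untreated experiment, where both genotypes had 3 to 9 counts. The difference of the IFNγ effects was still called without replicate 1 or 2 of sgCtrL with IFNγ, and it lost the call when any other 1 of the 12 libraries was left out, with adjusted p from 0.0744 to 0.163. With limma voom it was 2.28 with an adjusted p of 0.421.

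For most of the other genes the IFNγ effects of the genotypes were close. They lay within 0.5 on the log2 scale for 29 of the 38 genes, and for 20 of the 21 genes with at least 10 counts in every library without IFNγ, where the differences ran from -0.36 (Bst2) to 0.80 (Xaf1, standard error 0.31, edgeR adjusted p = 0.820). The 4 genes over 1 apart, Cmpk2, Sp100, Ifi44 and Epsti1, each had at most 20 counts in any library without IFNγ. Across the 38 genes the effects in the genotypes, which share no library, had a Pearson r of 0.955 and a Spearman rho of 0.947, and across all 14913 genes the Pearson r was 0.859. These describe genes, which are not independent replicates.

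The genotypes were then compared at each condition. In the untreated experiment 25 of the 42 genes passed the filter. At an edgeR adjusted p under 0.05, 10 of them (40%) differed, 8 higher and 2 lower in Sin3Bsg1. Among all 14589 genes 31.2% differed, with 15.1% higher and the rest of that share lower. The median log2 fold change of the 25 was 0.015, against 0.002 for all genes. Without IFNγ in the IFNγ experiment 9 of 38 genes differed (5 higher and 4 lower), or 23.7%, against 17.2% of all genes (7.89% higher and 9.32% lower), with a median of 0.06 against -0.009. With IFNγ 4 of 38 differed, all of them higher, or 10.5% against 16.5% of all genes (8.62% higher and 7.89% lower), with a median of 0.04 against 0.004. Among the genes tested the differences were small, and they exceeded 1 on the log2 scale only without IFNγ for Cmpk2, Sp100, Ifi44 and Oas1a. These had at most 20 counts in any of those libraries, and Cmpk2 alone passed the threshold. Of the untested genes, Mx1 with IFNγ had a ratio of Sin3Bsg1 to sgCtrL of 0.205 (exact counting interval 0.0693 to 0.504). With IFNγ the ratio was 1.58 (0.917 to 2.78) for Ifi27l2a and 0.955 (0.545 to 1.67) for Oas1g, and Sp110 had no count. Of the 25 genes tested in both experiments, 13 had the same sign at rest in both, and the called genes Bst2 and Samd9l were higher in both while Ifitm1 and Slfn2 went in opposite directions.

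**Figure D4:**
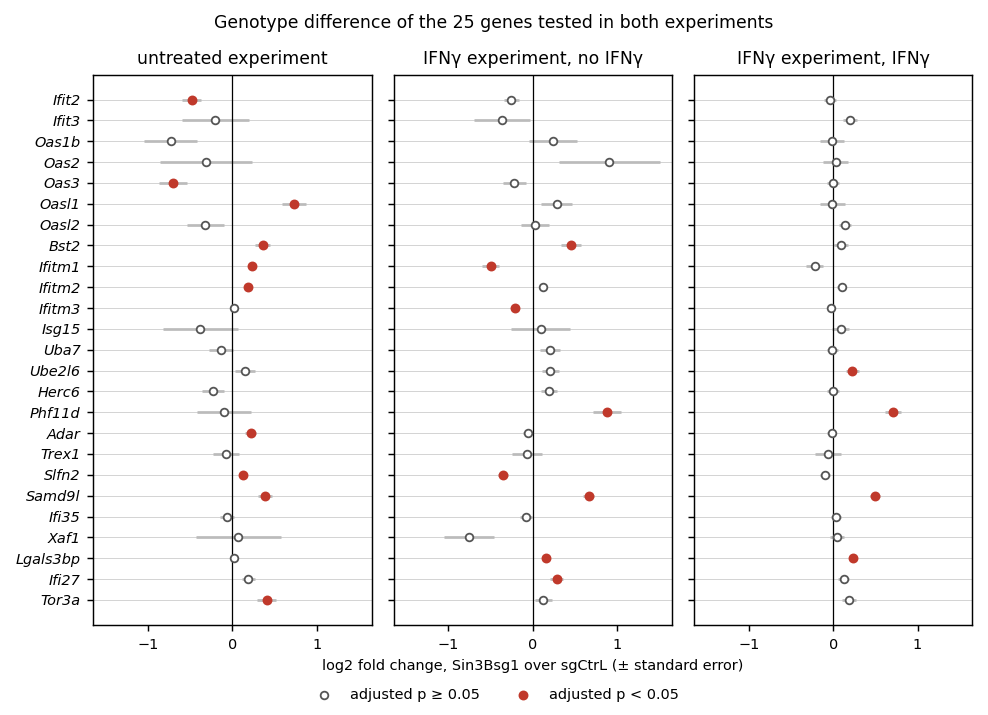
Log2 fold change of Sin3Bsg1 over sgCtrL, with standard errors, for the 25 genes tested in both experiments: untreated (n = 2 per group, left), without IFNγ (n = 3, middle) and with IFNγ (n = 3, right). Red points passed an edgeR adjusted p of 0.05; Samd9l is red in all 3 panels, Ifitm1 and Slfn2 change side between the left and middle panels, and 4 points are red on the right.

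Samd9l, an inhibitor of translation that acts against poxviruses, was higher in Sin3Bsg1 in all 3 settings, which held for 1 of the 25 genes tested in each. Of all genes, 15.1%, 7.89% and 8.62% were called higher in the single settings, and the share called in all 3 was not counted. Its levels were 22.7 and 21.7 CPM in untreated sgCtrL and 31.2 and 27.0 CPM in untreated Sin3Bsg1. In the IFNγ experiment they were 30.5, 29.2 and 33.1 CPM against 47.2, 47.0 and 52.3 CPM without IFNγ, and 127, 114 and 116 CPM against 170.2, 173 and 162 CPM with it. The genotypes did not overlap in any setting, which held in the same direction for 31.9%, 18.3% and 15.4% of all genes, and the log2 fold changes were 0.39 (standard error 0.080, edgeR adjusted p = 0.00130), 0.66 (0.065, adjusted p = 2.84e-06) and 0.50 (0.058, adjusted p = 1.76e-05). Phf11d was higher in Sin3Bsg1 in the IFNγ experiment only among the settings tested, by 0.88 (standard error 0.17, edgeR adjusted p = 0.00168) without IFNγ and 0.71 (0.096, adjusted p = 7.91e-05) with it. In the untreated experiment its values of 1.41 and 1.94 CPM in sgCtrL and 1.15 and 1.98 CPM in Sin3Bsg1 overlapped (-0.10, standard error 0.32). The difference between the experiments was not tested.

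The secreted Lgals3bp was higher in Sin3Bsg1 by 0.16 (standard error 0.046, edgeR adjusted p = 0.0228) without IFNγ and 0.24 (0.045, adjusted p = 0.00156) with it, from the values given above. The first of these calls was lost without replicates 1 or 2 of Sin3Bsg1 or without any of the 3 sgCtrL libraries (adjusted p from 0.0689 to 0.0985). Untreated cells had 1029.6 and 1046 CPM in sgCtrL and 1042 and 1055 CPM in Sin3Bsg1, which overlapped. Ube2l6 was higher with IFNγ by 0.23 (standard error 0.072, edgeR adjusted p = 0.0404), and the call was lost without replicates 2 or 3 of Sin3Bsg1 or replicate 3 of sgCtrL (adjusted p from 0.115 to 0.167), in a fit on only the libraries compared (0.0774) and with replicate numbers as a block (0.0557). When replicate 1 of sgCtrL with IFNγ, the library that stood apart, was left out, all 4 genes kept their call with IFNγ, and Tor3a (0.25, adjusted p = 0.0427) and Ifitm1 (-0.30, adjusted p = 0.0193) were called as well. The effect of IFNγ in sgCtrL then covered 37 higher and 2 lower genes.

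Bst2 was higher at rest in Sin3Bsg1 in both experiments, at 15.2 ± 0.408 against 11.9 ± 0.177 CPM (SD, n = 2) untreated (log2 fold change 0.36, standard error 0.091, edgeR adjusted p = 0.00666) and by 0.46 (0.12, adjusted p = 0.0145) without IFNγ. The latter missed the threshold without replicate 1 of Sin3Bsg1 or without replicates 1 or 2 of sgCtrL, at adjusted p from 0.0501 to 0.0535. With IFNγ the difference was 0.09 (standard error 0.084, adjusted p = 0.516) and the libraries overlapped. Ifi27, a small membrane protein whose exons overlap those of Ifi27l2a on the other strand, was higher by 0.28 (standard error 0.075, edgeR adjusted p = 0.0156) without IFNγ, at 15.7, 16.7 and 16.1 CPM against 14.5, 13.5 and 11.9 CPM. This call was lost without replicate 2 of Sin3Bsg1 or replicate 3 of sgCtrL (adjusted p = 0.0631 and 0.0846).

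**Figure D5:**
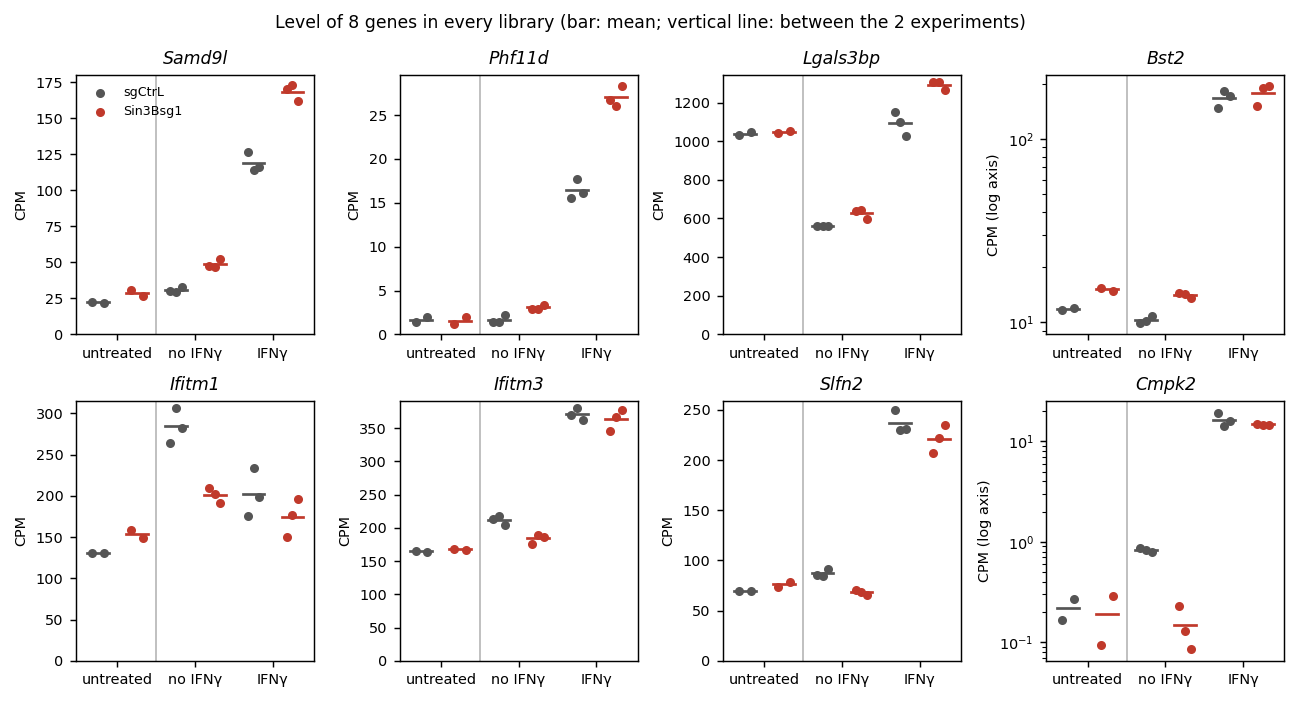
CPM of 8 genes in every library (points) with the group mean (bar), sgCtrL in grey and Sin3Bsg1 in red; the vertical line divides the untreated experiment from the IFNγ experiment, and Bst2 and Cmpk2 are on log axes. Samd9l is higher in Sin3Bsg1 in each condition, Ifitm1 and Slfn2 are higher in untreated Sin3Bsg1 and lower without IFNγ, and Cmpk2 separates only without IFNγ.

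Other resting differences held in a single experiment or reversed. Ifitm1 was higher in untreated Sin3Bsg1, at 159 and 149 CPM against 131 and 131 CPM (log2 fold change 0.24, standard error 0.034, edgeR adjusted p = 5.71e-05), and lower without IFNγ (-0.50, 0.099, adjusted p = 0.00221). Slfn2 was likewise higher in untreated cells, at 73.3 and 78.8 CPM against 69.3 and 69.6 CPM (0.13, standard error 0.043, edgeR adjusted p = 0.0298). It was lower without IFNγ, at 71.0, 68.3 and 65.3 CPM against 85.7, 84.8 and 91.2 CPM (-0.35, standard error 0.058, edgeR adjusted p = 0.000408). The untreated call of Slfn2 was lost with DESeq2 (adjusted p = 0.0756) and without replicate 2 of Sin3Bsg1 or either sgCtrL library (0.0825 to 0.303). Ifitm3 was lower without IFNγ (-0.21, standard error 0.048, edgeR adjusted p = 0.00670), and Ifitm2 was higher in untreated cells (0.19, 0.022, adjusted p = 6.50e-06).

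The largest differences in the untreated experiment were in the OAS family and went both ways. Oasl1, which holds back Irf7 translation, was at 5.17 and 4.80 CPM in sgCtrL and 7.44 and 9.13 CPM in Sin3Bsg1 (log2 fold change 0.73, standard error 0.15, edgeR adjusted p = 0.00101). Oas3 was at 5.31 and 6.46 CPM against 3.52 and 3.69 CPM (-0.71, standard error 0.17, edgeR adjusted p = 0.00397). Ifit2 was lower as well, at 10.2 and 11.3 CPM against 7.82 and 7.51 CPM (-0.48, standard error 0.11, edgeR adjusted p = 0.00377). Tor3a, an ATPase of the endoplasmic reticulum, was higher, at 7.98 ± 0.167 against 10.6 ± 0.559 CPM (SD, n = 2; 0.41, standard error 0.11, edgeR adjusted p = 0.0108), and Adar by 0.22 (adjusted p = 0.0138). The calls of Tor3a and Adar were each lost when 1 of 2 libraries was left out, replicate 1 of either genotype for Tor3a (adjusted p = 0.0634 and 0.0532) and replicate 2 of either for Adar (0.169 and 0.0871). In the IFNγ experiment, with all libraries in the fit, Oasl1, Oas3, Ifit2, Tor3a and Adar did not pass the threshold between genotypes without or with IFNγ. Ifit2 without IFNγ was nearest to it, with a log2 fold change of -0.25 and no overlap of the libraries (standard error 0.088, edgeR adjusted p = 0.0605), and it was called lower when replicate 3 of Sin3Bsg1 without IFNγ was left out. Tor3a was called with IFNγ when the library that stood apart was left out, as given above.

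The pathway upstream of these genes was read from a list of 30 genes. Transcripts of the interferon ligands were absent or nearly so, with 9 counts in all over 10 genes and 16 libraries (8 of Ifne and 1 of Ifnk), and with no count of Ifnb1, Ifng, Ifnl2, Ifnl3 or the 4 Ifna genes of the list. Of the other 20 genes, all tested, 9 were higher and 3 lower with IFNγ in sgCtrL and 9 higher and 2 lower in Sin3Bsg1. Of all genes, 15.7% were higher and 14.5% lower in sgCtrL, and 16.1% and 12.3% in Sin3Bsg1. The counts of lower pathway genes were thus near the background. Of the ISGF3 subunits, Stat2 rose by 3.82 and 3.89 on the log2 scale in sgCtrL and Sin3Bsg1 (edgeR adjusted p = 2.98e-14 and 1.75e-14), and Irf9 by 2.26 and 2.39 (adjusted p = 3.60e-13 and 9.66e-14). Irf1 rose by 3.51 and 3.56, Irf7 by 3.90 and 3.57, and the feedback inhibitor Socs1 by 4.16 and 4.12. No pathway gene passed the threshold for a different IFNγ effect between genotypes.

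Between genotypes, 4 of the 20 pathway genes were higher and 5 lower in untreated Sin3Bsg1, 2 and 2 without IFNγ, and 2 and 2 with it. Of all genes 31.2% were called untreated, with 15.1% higher and the rest of that share lower. The shares called higher and lower were 7.89% and 9.32% without IFNγ and 8.62% and 7.89% with it. The counts in the IFNγ experiment were thus near the background. Irf9 was higher in Sin3Bsg1 with IFNγ (73.1 against 61.2 CPM, 0.26, edgeR adjusted p = 0.00730). Among the receptors, Ifnar1, a chain of the type I interferon receptor, was lower in all 3 settings (-0.24, -0.22 and -0.21, edgeR adjusted p = 4.68e-05, 0.00353 and 0.00508). Ifnlr1, the specific chain of the type III receptor, was higher in all 3 (0.54, 0.55 and 0.78, adjusted p = 0.000379, 0.0438 and 0.00928).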

How the data were processed

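RNA-seq of KPC1199 cells was deposited as 2 tables, 1 per experiment, which were fitted apart. The authors' estimated counts per gene were made, per the labels, with fastp, HISAT2, StringTie and DESeq2 on mm39, whereas the study's methods name featureCounts and mm9. Versions, annotation and strand setting are not given in the sources used here. The tables name the control columns lacZ and the labels sgCtrL. The authors' columns of group means were not used, and 0 columns of per-sample values were left out. Unnamed loci (324, with 0.615 to 0.677% of the untreated counts) were left out.

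Estimated counts were rounded and tested with edgeR 4.0.16 in R 4.3.3 (quasi-likelihood, TMM, filterByExpr, Benjamini-Hochberg adjustment over all genes, threshold 0.05). The standard error is the log2 fold change divided by the root of its F statistic. The IFNγ table was fitted on its 12 libraries at once. The biological coefficient of variation was 2.84% untreated and 6.78% in the IFNγ experiment. CPM divide by TMM-scaled library sizes, and counting intervals (95%, exact) and the floor of 3 counts over a group cover counting error only. Code was tested on simulated counts. Alternatives were DESeq2 1.42.0, limma 3.58.1 (voom), RLE size factors, other filters, each library left out, a replicate block and fits on fewer libraries. Shared sequence was counted as 31-base words of GENCODE vM39 transcripts, and chromosomes are those of GRCm39.

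The 42 genes and the other lists were chosen with earlier results of these data known. Full values are given for the 6 genes with the largest called genotype difference at a mean of at least 1 CPM, the 6 largest and 4 smallest IFNγ effects, called differences of the IFNγ effect and the most abundant gene of each class. Other genes are named as examples chosen after their values were seen. Some items are not reported here.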

Additional observations from a re-analysis of the deposited data

Results flagged for a closer look

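The IFNγ effect on Cmpk2 was larger in Sin3Bsg1 than in sgCtrL by 2.26 on the log2 scale, a difference that passed the edgeR test of the interaction. Both groups without IFNγ held at most 20 counts per library.

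In 3 genes every Sin3Bsg1 library lay above every sgCtrL library in the untreated experiment and below every one without IFNγ in the other experiment. Over all genes, 31.9% were higher without overlap untreated and 20.9% lower without overlap without IFNγ, so that a few such genes among the 25 tested in both are not a result about these genes. The genotype difference was 0.24 and -0.50 on the log2 scale for Ifitm1, 0.13 and -0.35 for Slfn2, and 0.024 and -0.21 for Ifitm3, whose untreated difference did not pass the threshold (edgeR adjusted p = 0.584). The experiments were normalized apart, and the difference between them was not tested.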

How the results depend on the processing

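Among the called genes, 1088 values under an alternative kept their call and 37 lost it, and none changed sign. Called genes that kept the call in every alternative were 7 of 10 untreated, 6 of 9 without IFNγ, 3 of 4 with IFNγ, 37 of 38 and 36 of 36 for IFNγ in sgCtrL and Sin3Bsg1, and 0 of 1 for the difference of the IFNγ effects. With at least 10 counts required in every library, 19 of 21 genes were higher with IFNγ in each genotype, and no gene was called for the difference of the effects, Cmpk2 having been removed by that filter. With limma voom 0 genes were called higher for that difference (Cmpk2 adjusted p = 0.421), and without a filter on low counts 1 was lower (Bst2). Between genotypes with IFNγ, 2 genes were lower in Sin3Bsg1 without a filter (Rsad2 and Ifitm1) and 1 (Rsad2) in a fit on only the libraries compared. With the filter and all libraries edgeR called 0 lower, 8 of 38 genes had an unadjusted p under 0.05 in either direction and DESeq2 called 0 lower. For the effect of IFNγ within Sin3Bsg1, the fits without a filter and on only the libraries compared each gave 2 lower genes (Ifitm1 joining Ifitm2). The cause of these shifts was not tested.

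With each library left out in turn, genes higher and lower ranged from 6 to 7 and stayed at 2 untreated, from 3 to 5 and 4 to 5 without IFNγ, and from 3 to 5 and 0 to 1 with IFNγ. They ranged from 36 to 37 and stayed at 2 for IFNγ in sgCtrL, from 36 to 37 and 1 to 2 in Sin3Bsg1, and from 0 to 1 and at 0 for the difference of the effects. In the untreated fits the group left with 1 library was assumed to vary like the other. With replicate numbers as a block, 8 and 2, 5 and 4, 3 and 0, 36 and 2, 35 and 1, and 1 and 0 genes were called in these 6 comparisons, and Ube2l6 with IFNγ lost its call (adjusted p = 0.0557). Deviations of same-numbered libraries correlated between -0.029 and 0.119, with 1 of 18 pairs over 0.1, so the numbers were not taken to pair the samples. Depth limits the scarce genes most, since fitted fold changes from a few counts rest on the prior count.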
